A study of Mus musculus with 6 samples.

Results

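The 42 genes described here carry out DNA replication and mitosis, and were taken by gene name from the 48440 genes listed for each library of mouse small intestinal (SI) adenomas. Of the 42, 18 are S phase genes and 24 are mitotic genes, and all 42 had a mean level of at least 1 FPKM (fragments per kilobase of transcript, scaled by the authors to the size of the library) over the 6 libraries, so none was lost to the filter on low values. The study asked what the loss of Paneth cells (PCs), the secretory cells of the crypt base, does to adenomas of *Apc* Min mice. These mice carry a germline mutation of the tumor suppressor *Apc*, on a C57BL/6 background. RNA-seq was done on 3 *Apc* Min, WT adenoma samples (libraries QC4, QC5 and QC6) and 3 *Apc* Min, PC del adenoma samples (QC3, QC8 and QC10), all from mice above 42 days of age. Both groups carried *Apc* Min and 1 Rosa26-iDTA allele, which makes diphtheria toxin A only where Cre has removed its stop cassette. The PC del mice in addition carried Cre knocked in at *Defa4*, a gene of the PC lineage, and the WT mice were littermates without Cre. The sources used here do not say whether each library came from a different mouse, and p-values therefore measure the spread between these samples. The aligned sequence behind a library came to between 5.41 and 5.88 gigabases, estimated from the ratio of coverage to FPKM.

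A dividing cell licenses its replication origins in G1 by loading the MCM helicase, copies its DNA in S phase, and then builds a spindle that separates the chromosomes in mitosis. S phase genes are largely switched on by E2F factors, and mitotic genes later in the cycle by a complex of MuvB with B-MYB and FOXM1, so that transcripts of these genes mark cycling cells. In the intestine cycling cells fill the crypts, and in adenomas, where loss of *Apc* leaves Wnt signaling on, they extend beyond them.

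In bulk adenoma RNA, the 42 genes showed no difference between genotypes beyond the spread between libraries. The median S phase gene differed between genotypes by 0.03 on the log2(FPKM + 1) scale, higher in PC del adenomas, and the median mitotic gene by -0.02, lower in PC del adenomas, beside 0.04 over all 14240 genes tested. These medians depended on the WT library QC6, and without it they were -0.06 and -0.17. Lower in PC del adenomas were then 38 of the 42 genes, beside 50.6% of all genes, with a smallest limma adjusted p of 0.845. With all 6 libraries, the larger contrast was between libraries of the same genotype. The WT library QC4 held the highest value of 26 of the 42 genes, beside 17.3% of all genes tested. The WT library QC6 held the lowest value of 34 of the 42, beside 46.1% of all genes tested. Fewer cycling cells and less RNA of these genes per cell cannot be told apart in bulk tissue.

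Library QC6 stood apart over all genes, too. It held the lowest FPKM of 46.1% of the 14240 genes, and its median gene lay 0.13 below the mean of the libraries (-0.13 on the log2 scale), against between 0.00 and 0.03 in the other 5 libraries. limma's array weights, which estimate how closely each library follows the fit, were 0.237 for QC6 and between 0.634 and 3.09 for the others. Direction counts and medians of the S phase and mitotic lists, and the difference between their scores, are therefore given with and without QC6. Other values, those of lists of cell type markers included, are given with all 6 libraries unless stated.

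Among the S phase genes, *Pcna*, the sliding clamp that holds DNA polymerase on its template, had the highest level. It was expressed at 104, 95 and 85.1 FPKM in QC4, QC5 and QC6 (WT) and at 90.1, 86.1 and 100.1 FPKM in QC3, QC8 and QC10 (PC del). The groups overlapped, with a WT library at each end of the range. Its log2 fold change (PC del minus WT) was -0.04 (standard error 0.12, 95% confidence interval -0.32 to 0.25, limma adjusted p = 1.0). A processed copy, *Pcna-ps2*, holds 23.3% of the 31-base words of *Pcna* transcripts and was itself listed at between 18.8 and 24 FPKM, so reads of the pair are uncertain in their assignment.

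The 6 subunits of the MCM2-7 helicase, which unwinds DNA at the replication fork, were expressed within a narrow range of each other. In every library the highest and the lowest subunit were between 1.54-fold and 2-fold apart in FPKM. *Mcm6* led in each library, at 40.2, 35.6 and 29.8 FPKM in QC4, QC5 and QC6 and at 35.1, 32.6 and 38.6 FPKM in QC3, QC8 and QC10. *Mcm2* was at 22.5, 20.1 and 16.5 FPKM in WT and at 20.4, 21.1 and 20.1 FPKM in PC del adenomas. For both genes the 3 PC del values fell between the lowest and the highest WT value.

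*Mcm3* had the largest estimated difference of the 42 genes. It was at 23.5, 21.2 and 16.4 FPKM in QC4, QC5 and QC6 (WT) and at 25.7, 28.4 and 20.8 FPKM in QC3, QC8 and QC10 (PC del). QC3 and QC8 were above all WT libraries, and QC10 was below QC4 and QC5, so the groups overlapped. The log2 fold change was 0.29 (standard error 0.17, 95% confidence interval -0.13 to 0.70, limma adjusted p = 1.0; exact two-sided permutation test, p = 0.3). Its limma p before adjustment, 0.144, was the smallest among the 42. The rank of *Mcm3* by size did not hold without QC6, where it was at 0.14 and *Tyms* at 0.37. With array weights *Mcm3* was at 0.24 and *Tyms* at 0.44.

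*Mcm4*, another subunit of the ring, was at 24, 21 and 17 FPKM in WT and at 21.7, 22.3 and 19.3 FPKM in PC del adenomas. *Mcm5* was at 25.4, 22.9 and 19.0 FPKM in WT and at 22.5, 22.8 and 23.8 FPKM in PC del adenomas. *Mcm7* was at 29.5, 25.0 and 19.1 FPKM in WT and at 24.2, 23.8 and 23.5 FPKM in PC del adenomas. In each of these 3 genes QC4 was highest and QC6 lowest, with the PC del libraries in between. Summed over the 6 subunits, the level was 165, 146 and 118 FPKM in QC4, QC5 and QC6 and 149, 151 and 146 FPKM in QC3, QC8 and QC10.

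The factors that load the helicase were weaker. *Cdc6*, which recruits MCM to origins, was at 4.59, 3.37 and 2.72 FPKM in QC4, QC5 and QC6 (WT) and at 4.11, 3.89 and 3.60 FPKM in QC3, QC8 and QC10 (PC del). The PC del values again lay within the WT range. *Cdt1*, its partner in loading, varied least of the 42 genes, 1.20-fold between the highest and the lowest library, with means of 13.8 ± 1.35 FPKM (SD, n = 3) in WT and 13.4 ± 0.177 FPKM (SD, n = 3) in PC del adenomas. *Cdc45* and *Gins2*, which join MCM to form the active helicase, had means of 9.80 and 9.42 FPKM over the 6 libraries.

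Of the genes of nucleotide synthesis, *Rrm1* and *Rrm2* encode the subunits of ribonucleotide reductase. *Rrm1* was at 32.4, 29.8 and 24.3 FPKM in WT and at 30.1, 28.8 and 30.5 FPKM in PC del adenomas. *Rrm2* was at 30.2, 26.8 and 22.2 FPKM in WT and at 28.5, 24.5 and 23.8 FPKM in PC del adenomas. Both were highest in QC4 and lowest in QC6.

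*Tyms*, which makes thymidylate, did not follow this order. It was listed at 13.0, 9.94 and 18.8 FPKM in QC4, QC5 and QC6 and at 13.1, 21.4 and 12.1 FPKM in QC3, QC8 and QC10, highest in 1 library of each genotype. The groups overlapped, and the log2 fold change was 0.15 (standard error 0.28, 95% confidence interval -0.53 to 0.82, limma adjusted p = 1.0). In mean coverage per gigabase, a second value deposited for each gene and scaled here by depth, the same libraries read 5.46, 4.42 and 4.09 in WT and 5.77, 4.52 and 5.48 in PC del adenomas. There QC6 was lowest, and the high FPKM of QC6 and QC8 had no counterpart. The ratio of coverage to FPKM varied over 1.5-fold between libraries in 2 of the 42 genes, *Tyms* and *Chek1*, and in 902 of the 14240.

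At the G1/S transition, *E2f1* encodes an activator of S phase genes. It was at 4.37, 4.46 and 3.57 FPKM in QC4, QC5 and QC6 (WT) and at 3.10, 3.40 and 4.27 FPKM in QC3, QC8 and QC10 (PC del). QC3 and QC8 were below each WT library, while QC10 was above QC6. It had the lowest estimate among the 42, a log2 fold change of -0.17 (standard error 0.14, 95% confidence interval -0.49 to 0.16, limma adjusted p = 1.0; exact two-sided permutation test, p = 0.2). This rank did not hold without QC6, where *E2f1* was at -0.25 and *Cenpa* at -0.33. The cyclin E genes, whose proteins drive entry into S phase with CDK2, had means of 7.82 ± 1.32 and 8.38 ± 0.639 FPKM for *Ccne1* and of 5.08 ± 0.494 and 5.17 ± 0.962 FPKM for *Ccne2* (SD, n = 3; WT and PC del). *Chek1*, a kinase of the replication checkpoint, ranged from 3.01 FPKM in QC6 to 5.37 FPKM in QC3. In coverage per gigabase QC6 was also lowest, at 2.01, but QC3, at 2.48, was below QC4 (2.7) and QC8 (2.65).

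**Figure D1:**
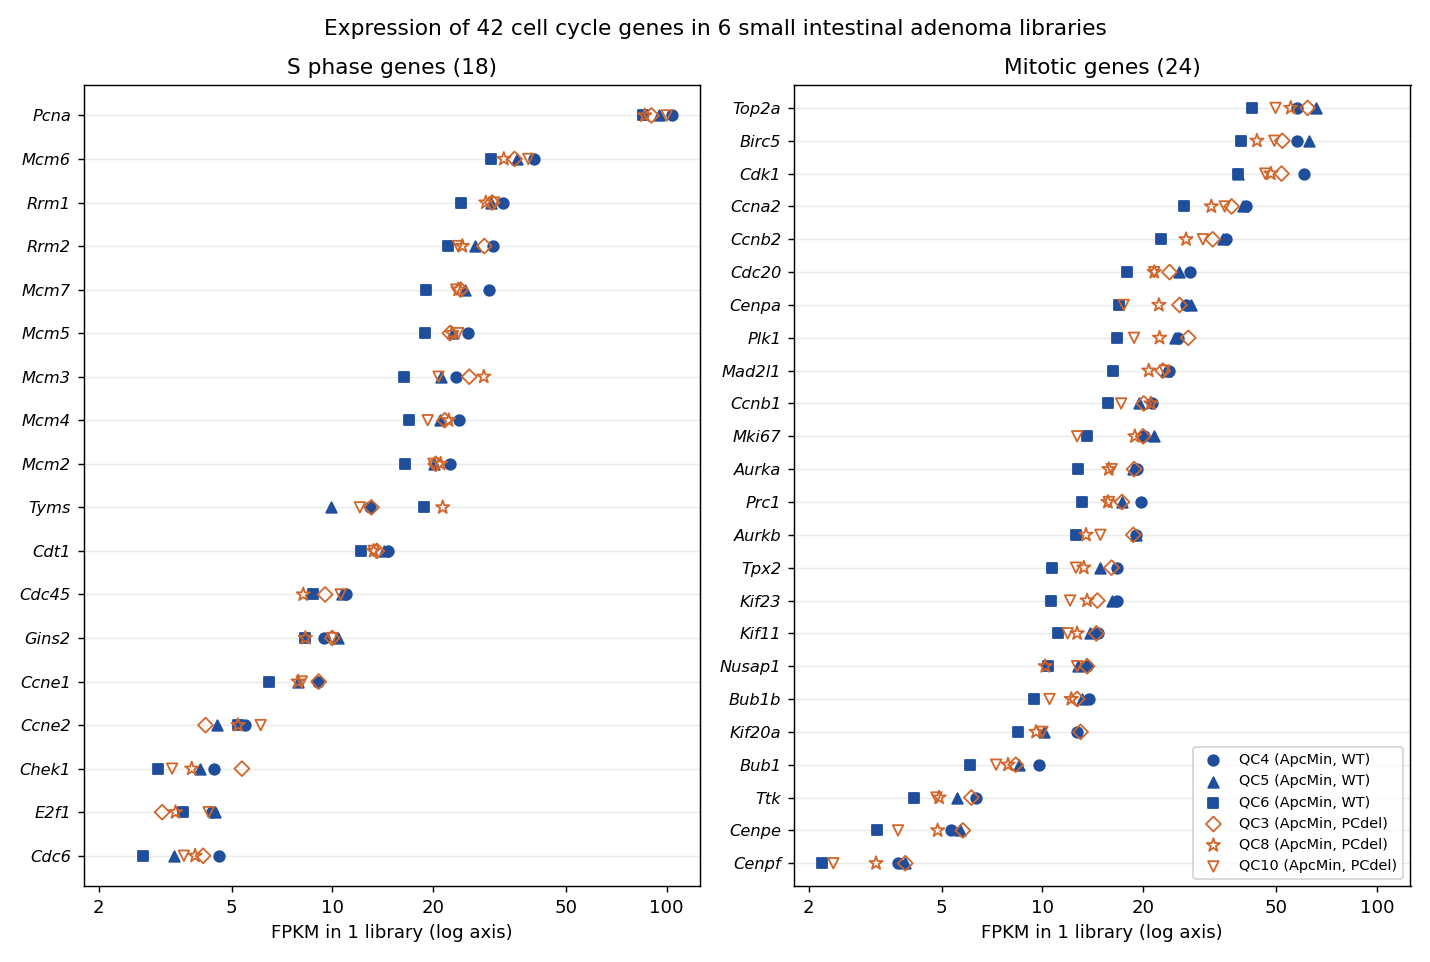
FPKM of each of the 42 genes in each library on a log axis, S phase genes on the left and mitotic genes on the right, ordered by mean level, with filled blue symbols for the 3 *Apc* Min, WT libraries and open orange symbols for the 3 *Apc* Min, PC del libraries. The blue square of QC6 is the leftmost point in 34 genes, and the symbols of the genotypes overlap in each gene.

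Among the mitotic genes, *Top2a*, the topoisomerase that untangles sister chromatids, had the highest level. It was expressed at 57.9, 65.7 and 42.3 FPKM in QC4, QC5 and QC6 (WT) and at 62.1, 55.3 and 49.8 FPKM in QC3, QC8 and QC10 (PC del). All PC del values lay between those of QC6 and QC5. limma's estimate of the log2 fold change was 0.03 (standard error 0.18, 95% confidence interval -0.40 to 0.46, limma adjusted p = 1.0).

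*Mki67* encodes Ki67, the protein stained to count cycling cells. It was at 20.1, 21.6 and 13.6 FPKM in QC4, QC5 and QC6 and at 20, 18.9 and 12.7 FPKM in QC3, QC8 and QC10. Each genotype thus had 1 library well under its other 2, QC6 in WT and QC10 in PC del adenomas. The log2 fold change was -0.09 (standard error 0.23, 95% confidence interval -0.64 to 0.45, limma adjusted p = 1.0; exact two-sided permutation test, p = 0.5), and it turned to 0.03 without QC5 and to 0.10 without QC10.

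The kinase CDK1 and its cyclins start mitosis. *Cdk1* was at 60.7, 38.4 and 38.5 FPKM in QC4, QC5 and QC6 (WT) and at 51.9, 48.2 and 46.4 FPKM in QC3, QC8 and QC10 (PC del). In FPKM QC5 was as low as QC6, and the PC del libraries lay between these 2 and QC4. In coverage per gigabase QC5, at 21.9, was above each PC del library (21.5, 19.7 and 20.4), and QC6 was lowest at 16.8. limma's estimate of the log2 fold change was 0.12 (standard error 0.19, 95% confidence interval -0.34 to 0.58, limma adjusted p = 1.0), and by coverage it was -0.03.

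*Ccnb1*, which encodes a B-type cyclin, was at 21.2, 19.5 and 15.7 FPKM in WT and at 20.1, 21.1 and 17.2 FPKM in PC del adenomas. limma's estimate of the log2 fold change was 0.05 (standard error 0.14, 95% confidence interval -0.28 to 0.39, limma adjusted p = 1.0). *Ccnb2*, the other B-type cyclin on the list, was at 35.4, 34.7 and 22.6 FPKM in WT and at 32.3, 26.9 and 30.2 FPKM in PC del adenomas. *Ccna2*, a cyclin of S phase and G2, was at 40.7, 39.7 and 26.5 FPKM in WT and at 36.8, 32.0 and 35.1 FPKM in PC del adenomas. In all 3 cyclin genes QC4 was highest and QC6 lowest.

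The chromosomal passenger complex joins survivin, encoded by *Birc5*, to the kinase Aurora B. *Birc5* was at 57.9, 62.5 and 39.3 FPKM in QC4, QC5 and QC6 (WT) and at 52.2, 43.8 and 49.4 FPKM in QC3, QC8 and QC10 (PC del). QC4 and QC5 were above all PC del libraries and QC6 was below them. Its fold change on the log2 scale was -0.11 (standard error 0.19, 95% confidence interval -0.56 to 0.34, limma adjusted p = 1.0). *Aurkb* had the same layout for QC4 and QC5, at 19.0 FPKM in each, beside 12.6 FPKM in QC6 and 18.7, 13.5 and 14.9 FPKM in the PC del libraries.

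At the centromere, *Cenpa* encodes the histone H3 variant that marks where the kinetochore forms. It was at 26.9, 27.8 and 16.9 FPKM in QC4, QC5 and QC6 and at 25.7, 22.3 and 17.5 FPKM in QC3, QC8 and QC10, with QC6 and QC10 lowest. Its fold change on the log2 scale was -0.11 (standard error 0.23, 95% confidence interval -0.65 to 0.43, limma adjusted p = 1.0). The large kinetochore proteins showed the widest relative spread among the mitotic genes. *Cenpe*, a kinesin of the kinetochore, ranged 1.80-fold, from 3.21 FPKM in QC6 to 5.78 FPKM in QC3, and *Cenpf* ranged 1.77-fold, from 2.19 to 3.89 FPKM. Both had their second lowest value in QC10, at 3.70 and 2.37 FPKM, as *Cenpa* did.

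The spindle checkpoint and its target were represented by *Bub1*, *Bub1b*, *Ttk*, *Mad2l1* and *Cdc20*. *Mad2l1*, whose product holds back the anaphase-promoting complex, was at 23.9, 23.4 and 16.3 FPKM in WT and at 22.9, 20.8 and 23.2 FPKM in PC del adenomas. *Cdc20*, which activates that complex, was at 27.7, 25.6 and 17.9 FPKM in WT and at 24, 21.6 and 21.6 FPKM in PC del adenomas. Both had QC6 as the lowest library by a margin wider than the spread among the PC del libraries. *Plk1*, a kinase of spindle assembly and mitotic exit, was highest in QC3 (27.3 FPKM) and lowest in QC6 (16.7 FPKM). Spindle kinesins were expressed at means of 13.1 FPKM (*Kif11*), 13.9 FPKM (*Kif23*) and 10.6 FPKM (*Kif20a*).

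Tested over all 14240 genes with limma, 0 of the 42 genes passed an adjusted p of 0.05, where 2 genes in all (0.0140%) did. At an unadjusted p under 0.05 there were also 0 of 42, beside 3.38% of all genes. In 0 of the 42 did the groups fail to overlap, against 7.54% of all genes. By coverage in place of FPKM the count was again 0 of 42 on both measures, beside 3.41% and 7.37% of all genes. An exact permutation test of 3 libraries against 3 cannot go below p = 0.1 and so could not pass 0.05 for any gene. The 95% confidence intervals of all 42 genes lay within -1 and 1 on the log2 scale, beside 13019 of the 14240 genes. Their bounds reached from -0.65 to 0.82. Within 0.5 of 0 lay 29 of the 42 (14 S phase and 15 mitotic), beside 8561 of the 14240. With a library left out, the upper bound of *Tyms* passed 1, at 1.05 without QC3 or QC6 and at 1.07 without QC10.

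**Figure D2:**
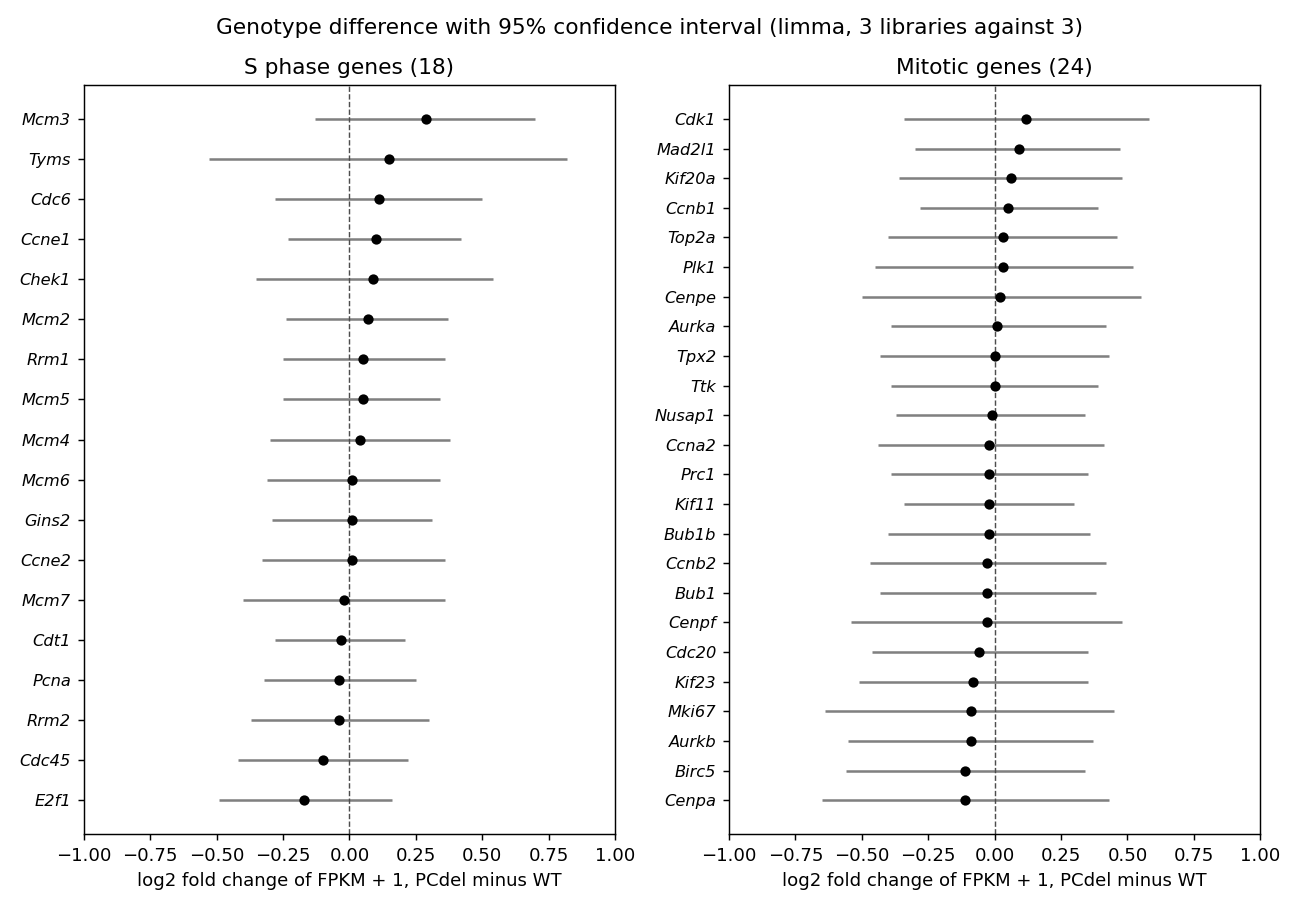
Log2 fold change of FPKM + 1 (PC del minus WT) of each of the 42 genes, with points for the limma estimate and bars for its 95% confidence interval, from 3 libraries against 3. Every interval spans 0, and the estimates run from -0.17 (*E2f1*) to 0.29 (*Mcm3*).

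By direction alone, 6 of the 18 S phase genes and 15 of the 24 mitotic genes were lower in PC del adenomas, beside 36.9% of all genes tested. These counts varied with the scaling and with single libraries. With TPM (transcript abundance scaled by the authors to the same total in every library) 2 S phase and 6 mitotic genes were lower, beside 24.2% of all genes, and with each library centred on its median 11 and 20 were, beside 52.3%. With array weights, 11 and 21 were lower, beside 47.0%. Without QC6, 15 of 18 S phase and 23 of 24 mitotic genes were lower in PC del adenomas, beside 50.6% of all genes, with medians of -0.06 and -0.17. Without QC4, 2 and 3 were lower, beside 33.0%, and without QC5, 7 and 0 were, beside 32.0%. In the fit without QC6, 3 mitotic genes had an unadjusted limma p under 0.05, beside 5.76% of all genes, and the smallest adjusted p of the 42 was 0.845. They were *Birc5* (log2 fold change -0.31, adjusted p = 0.845), *Kif23*, a kinesin of cytokinesis (-0.27, adjusted p = 0.845), and *Cdc20* (-0.24, adjusted p = 0.845). Without QC4 there was 1 such gene, *Cdk1*, in the other direction (0.34, adjusted p = 0.981), beside 3.76% of all genes, with QC5 and QC6 as the WT libraries left. With array weights there were 2, *E2f1* (-0.28, adjusted p = 0.534) and *Birc5* (-0.30, adjusted p = 0.556), beside 8.92%. Over all alternatives run, the adjusted p of each of these 5 genes lay between 0.534 and 1.0.

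Setting the lists against each other, mitotic genes varied more between libraries than S phase genes. The highest library exceeded the lowest by a median of 1.55-fold in mitotic genes and 1.39-fold in S phase genes, beside 1.46-fold over all genes tested. In percent of each gene's mean over the libraries, mitotic genes stood at 116, 110.1 and 76.9 in QC4, QC5 and QC6 and at 111, 95.8 and 90.6 in QC3, QC8 and QC10. S phase genes stood at 111, 99.5 and 86.7 in the WT libraries and at 102, 101 and 100.1 in the PC del libraries. The PC del libraries were nearly level in S phase genes, while in mitotic genes QC3 was above QC8 and QC10.

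The score of a library was the mean of log2(FPKM + 1) over a list. S phase scores averaged 3.94 ± 0.16 (SD, n = 3) in WT and 3.97 ± 0.01 (SD, n = 3) in PC del adenomas, and mitotic scores 4.14 ± 0.30 and 4.12 ± 0.14. From the lowest to the highest, the S phase score minus the mitotic score was -0.32 in QC5, -0.29 in QC3, -0.25 in QC4, -0.12 in QC8, -0.05 in QC10 and -0.03 in QC6. The genotypes were mixed along this order, with 1 PC del and 2 WT libraries at the mitotic end and the reverse at the other. Their means, -0.20 ± 0.15 in WT and -0.15 ± 0.13 in PC del adenomas (SD, n = 3), differed by 0.04, less than the spread within a group. That difference was 0.13 without QC6, 0.12 without QC3, 0.02 without QC4 and -0.01 without QC5 or QC10. Together the 42 genes took between 0.116% (QC6) and 0.171% (QC4) of all FPKM in a library.

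**Figure D3:**
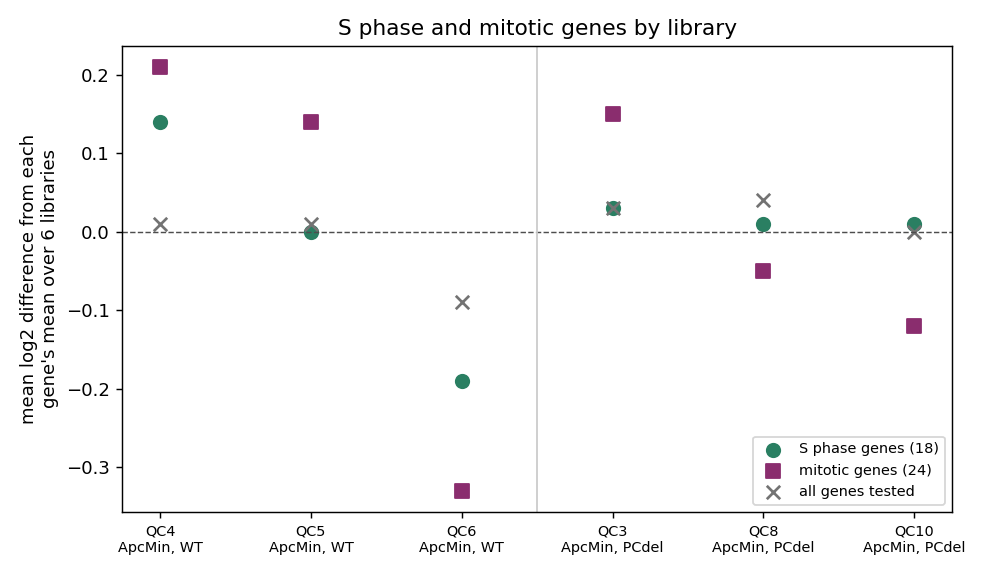
Mean log2 difference of the 18 S phase genes (green circles), the 24 mitotic genes (purple squares) and all genes tested (gray crosses) from each gene's mean over the 6 libraries, by library, with WT on the left and PC del on the right. Mitotic genes run from -0.33 in QC6 to 0.21 in QC4, farther in both directions than S phase genes (-0.19 to 0.14).

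The low place of QC6 held beyond the 14240-gene shift in part. After each library was centred on its median, QC6 was still lowest in 21 of the 42 genes (50%), against 20.5% of all genes. These were 8 of the 18 S phase genes and 13 of the 24 mitotic genes. The mean log2 difference of QC6 was then -0.06 in S phase genes, near QC5 (-0.03) and QC8 (-0.02), and -0.2 in mitotic genes. QC4 was still highest in 26 of the 42, against 1983 of the 14240 genes. By coverage QC6 was lowest in 37 of 42, against 47.9% of all genes, and by TPM in 38, against 57.6%. QC8 and QC10 were lowest in 9 and 8 genes after centring, against 19.1% and 17.9% of all genes. By the mean log2 difference of the 42 genes, QC6 was lowest, then QC10, then QC8, in FPKM, after centring, by TPM and by coverage. Their values were -0.27, -0.07 and -0.02 in FPKM and -0.14, -0.07 and -0.06 after centring, so the gap narrowed.

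In FPKM, QC6 was also often lowest in other genes of the cell cycle, most of all in mitosis genes. It was lowest in 42 of 50 further mitosis genes, beside 46.1% of all genes. It was lowest in 32 of 50 further replication genes and in 21 of 35 cyclin D, CDK, inhibitor and regulator genes tested. Those shares were nearer to that of all genes. These lists were not counted again after centring, so a low place beyond the shift of all genes was not tested for them. Between genotypes, limma put 0 genes of each list past the adjusted threshold. At an unadjusted p under 0.05 there were 2 of the 50 replication genes, 1 of the 50 mitosis genes and 0 of the 35 regulators, beside 3.38% of all genes. The groups did not overlap in 1, 1 and 0, beside 7.54%.

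*Fen1*, the nuclease that trims Okazaki fragments, was at 19.2, 18.8 and 14.8 FPKM in QC4, QC5 and QC6 and at 5.58, 16.7 and 3.94 FPKM in QC3, QC8 and QC10. QC3 and QC10 were low and QC8 lay within the WT range, so the groups overlapped (log2 fold change -1.15, standard error 0.45, 95% confidence interval -2.22 to -0.08, limma adjusted p = 1.0). Coverage gave the same layout, at 4.90 and 3.46 in QC3 and QC10 beside 14.0 or more in the others. *Foxm1*, named here after its values were seen, encodes the factor that switches on many mitotic genes. It was also low in QC3 and QC10, at 3.12 and 3.45 FPKM. QC4, QC5, QC6 and QC8 were at 8.04, 6.89, 6.93 and 7.82 FPKM. It is among the 35 regulators, 0 of which had an unadjusted limma p under 0.05. The 24 mitotic genes stood at 111% of their means over the libraries in QC3 and at 90.6% in QC10. A link between *Foxm1* and these genes was not tested. Transcripts of a gene on the opposite strand hold 76.8% of the 31-base words of *Fen1*.

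*Spc25*, a subunit of the NDC80 complex that grips microtubules at the kinetochore, was at 15.6, 9.08 and 10.5 FPKM in QC4, QC5 and QC6 and at 7.14, 7.01 and 8.20 FPKM in QC3, QC8 and QC10. In FPKM and in coverage the lowest WT value was above the highest PC del value. The log2 fold change was -0.56 (standard error 0.19, 95% confidence interval -1.02 to -0.10, limma adjusted p = 1.0; p = 0.1 by exact permutation, the floor for 3 against 3). No other annotated gene shares its transcript sequence (0% of 31-base words).

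Markers of cell types were read beside these genes, for whole lists. The tissue label was met by epithelial markers, all 9 of them above 1 FPKM on average and led by *Krt8*, with sums of 7404, 7568 and 5705 FPKM in QC4, QC5 and QC6 and of 6271, 7026 and 8004 FPKM in QC3, QC8 and QC10. The 10 enterocyte markers, led by *Apoa1*, summed to 10867, 10336 and 25882 FPKM in the WT libraries and to 11527, 9696 and 15611 FPKM in the PC del libraries. QC6, the library lowest in S phase and mitotic genes, was thus highest in enterocyte transcripts, in 8 of the 10 markers, beside 12.5% of all genes. The 9 crypt and adenoma markers summed to 342, 299 and 259 FPKM in WT and to 267, 376 and 434 FPKM in PC del adenomas. QC6 was lowest in 6 of the 9, beside 46.1% of all genes. *Olfm4* led the list and, at 113 FPKM, was higher in QC6 than in QC4 and QC5.

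Of the other lists, blood (5 genes, led by *Hbb-bs*) summed to 1932 FPKM in QC6 and to between 209 and 930 FPKM elsewhere. T cell markers (6 genes, led by *Cd3g*) summed to 27.1 FPKM in QC6 and to between 10.9 and 22.9 FPKM elsewhere. QC6 was highest in 3 of them and lowest in 1, beside 12.5% and 46.1% of all genes. Plasma cell markers (4 genes, led by *Igha*) summed to 13713 FPKM in QC6 and to between 8959 and 11749 FPKM elsewhere. QC6 was lowest in the sums of fibroblast (6 genes, led by *Dcn*), endothelial (5, led by *Pecam1*) and macrophage and neutrophil markers (6, led by *Csf1r*), at 185, 23.4 and 19.2 FPKM. It was the lowest library in 6 fibroblast, 4 endothelial and 2 macrophage and neutrophil markers, beside 46.1% of all genes. For macrophage and neutrophil markers this share was below that of all genes, and *Csf1r* was not among the 2. Smooth muscle markers (7 genes, led by *Tagln*, with *Myocd* under 1 FPKM) summed to between 211 FPKM in QC4 and 449 FPKM in QC8. The 4 Y-linked genes, led by *Eif2s3y*, summed to 37.9 FPKM in QC6 and 41.9 FPKM in QC3 and to at most 1.52 FPKM in the other libraries. The 6 PC markers, led by *Lyz1*, summed to 3059, 4294 and 4181 FPKM in WT and to 1801, 2267 and 1956 FPKM in PC del adenomas. All 6 had an estimate below 0 in PC del adenomas, beside 36.9% of all genes, 5 with an unadjusted limma p under 0.05, beside 3.38%, and 0 past the adjusted threshold, and in *Mmp7* QC6 was below each PC del library. Of fibroblast, smooth muscle, T cell and macrophage and neutrophil markers, 6 tested in each list, 0 were lower in PC del adenomas and 0 passed the adjusted threshold. At an unadjusted limma p under 0.05 there were 2 (*Dcn* and *Pdgfra*), 0, 0 and 1 (*Adgre1*) of these, genes named after their values were seen. Lower in PC del adenomas were also 8 of 10 enterocyte, 5 of 5 blood and 4 of 4 Y-linked genes, 0 of them at an unadjusted limma p under 0.05 and 0 past the adjusted threshold. These counts include QC6, which was highest in 8 of the 10 enterocyte and 5 of the 5 blood markers, beside 12.5% of all genes. With QC6 set aside, the Y-linked sums were 0.254 and 1.52 FPKM in WT and 41.9, 0.0038 and 0.07 FPKM in PC del adenomas. Directions of the marker lists were not counted again without QC6, and these may not hold without it. The part of these cell types and of sex in the order of the libraries was not tested.

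The promoters of the 42 genes were searched for E2F motifs, the cell cycle homology region and the CCAAT box. RefSeq's promoters of GRCm38.p6 were used, from 250 bases before to 50 after each start. Genes lowest in QC6 were not set apart, so a link to the order of the libraries was not tested. Promoters were matched for 35 of the 42 genes, and those of *Mcm4*, *Ccne2*, *Gins2*, *Ccna2*, *Aurkb*, *Tpx2* and *Kif20a* were not used here. E2F motifs were the letters TTCCCGC or TTGGCGC or TTCGCGC or TTGCCGC on either strand, and they overlap where a match reads on both strands. At least 1 was present in 9 of 15 S phase genes (60%) and in 3 of 20 mitotic genes (15.0%), beside 10.9% of all 27025 genes. The cell cycle homology region (CHR), TTTGAA or TTCGAA on either strand, was present in 15 of 20 mitotic genes (75.0%) and in 3 of 15 S phase genes (20%), beside 21.7% of all genes. The CCAAT box stood in 17 of 20 mitotic genes (85.0%) and 9 of 15 S phase genes (60%), beside 41.1%, and CHR and CCAAT together in 15 of 20 mitotic genes (75.0%), beside 8.61%. By promoter and not by gene, the shares over all 32851 promoters were 9.57% for E2F, 19.2% for CHR and 37.4% for CCAAT. A match is a run of letters, and binding was not measured.

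To show where the motifs lie, stretches are given for the 3 S phase genes with the widest range between libraries whose E2F match lay before the start and outside the annotated transcript, with E2F matches in capitals. They are *Rrm2* (chr12:24708009-24708035, plus strand), *Mcm6* (chr1:128359732-128359824, minus strand) and *Mcm5* (chr8:75109335-75109376, plus strand), with 1, 4 and 3 matches, each written 5′ to 3′ along the gene.
Rrm2: accaacctcaGCGGCAAcgcccgcccg
Mcm6: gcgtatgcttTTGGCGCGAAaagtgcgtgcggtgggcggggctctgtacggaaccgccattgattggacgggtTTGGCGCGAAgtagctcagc
Mcm5: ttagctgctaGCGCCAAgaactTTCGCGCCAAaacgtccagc
In *Mcm6* and *Mcm5* matches on opposite strands overlap, so a capital run can hold more than 1.

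For mitotic genes the same rule, with CHR and CCAAT both required and both in capitals (ATTGG is CCAAT on the other strand), gave *Mki67* (chr7:135716462-135716577), *Cdk1* (chr10:69352946-69353130) and *Ccnb2* (chr9:70421561-70421731), all on the minus strand of GRCm38.p6.
Mki67: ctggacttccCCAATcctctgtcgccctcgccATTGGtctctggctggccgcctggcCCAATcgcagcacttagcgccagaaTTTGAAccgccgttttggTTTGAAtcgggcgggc
Cdk1: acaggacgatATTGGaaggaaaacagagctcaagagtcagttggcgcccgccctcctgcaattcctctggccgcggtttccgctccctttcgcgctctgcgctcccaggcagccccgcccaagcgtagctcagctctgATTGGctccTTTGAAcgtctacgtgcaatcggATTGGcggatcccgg
Ccnb2: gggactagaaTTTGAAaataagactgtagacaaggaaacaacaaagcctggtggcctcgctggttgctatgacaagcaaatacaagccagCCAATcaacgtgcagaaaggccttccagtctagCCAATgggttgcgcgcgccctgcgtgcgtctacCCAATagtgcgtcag
*Mki67* holds 2 CHR and 3 CCAAT matches, and *Cdk1* and *Ccnb2* each hold 1 and 3 in the stretch shown.

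The read assignment of some members is uncertain. In 6 of the 42 genes over 20% of the 31-base words also occur in other genes, namely *Gins2* (66.2%), *Mcm7* (33.4%), *Ccnb1* (27.8%), *Cdc20* (26.7%), *Kif20a* (26.7%) and *Pcna* (23.3%), against a median of 3.89%, and 17 overlap another annotated gene, whose reads cannot be told apart where strand was not used.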

How the data were processed

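RNA was prepared with the TruSeq RNA kit and sequenced on a HiSeq2500. The methods name CLC Genomics Workbench for alignment and a normalization in MatLab, without settings. Which program made the deposited tables, and with what strand setting, is not given in the sources used here. FPKM, as deposited by the authors, is scaled for transcript length and library size. TPM, also from the authors, is scaled to the same total in every library. Read coverage of a gene was deposited by the authors without scaling for depth, and was divided here by the gigabases of the library, estimated as the 99th percentile of coverage over FPKM among genes above 1 FPKM. Entries with the same gene identifier were summed. The tables hold no counts, so no count model was run.

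Genotypes were compared with limma 3.58.1 in R 4.3.3 (lmFit, eBayes with trend) on log2(FPKM + 1). Genes entered the fit when their FPKM averaged 1 or more (14240 genes), and p-values were adjusted by Benjamini-Hochberg with a threshold of 0.05. With the pseudocount, differences of weakly expressed genes are understated. The fit was tested on simulated data with known answers. For single genes, group means were also tested by exact permutation of the 6 libraries, two-sided. Lists were described by counts and medians, without a test. The members and lists were chosen with earlier results of these data known.

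Library values were given for the 4 members of each list with the highest mean FPKM, the 4 with the largest absolute log2 fold change, any with an unadjusted p under 0.05 or groups apart, and *Mki67*, *Top2a*, *Ccnb1*, *Cdk1*, *Pcna*, *Mcm2* to *Mcm7* and *E2f1*. Of the other cell cycle lists, naming was limited to genes with an unadjusted p under 0.05, at most 4 per list by absolute log2 fold change, and not every such gene is described. Members outside this rule were described after their values were seen. For promoter sequence the rule was the 3 members per list with the largest spread between libraries whose promoter holds the motif. It was narrowed, after the data were seen, to matches before the RefSeq start and outside the annotated gene. The rule as first set would have given *Chek1*, *Mcm3* and *Cdc6*, and *Cenpf*, *Mki67* and *Cenpa*. Shared sequence was measured as 31-base words found on either strand in GENCODE's transcripts of other genes.

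Alternatives were TPM, a pseudocount of 0.1, a filter at a mean of 5 FPKM or none, median centring, quantile normalization, eBayes without trend, array weights, a score of the Y-linked genes as covariate, and each library left out in turn. Coverage per gigabase was an alternative chosen after seeing the data.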

Additional observations from a re-analysis of the deposited data

How the results depend on the processing

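In the 10 alternatives to the processing and the 6 fits that each left out 1 library, 0 of the 42 genes passed the adjusted threshold in limma. At an unadjusted p under 0.05 there were 2 with array weights, 3 without QC6, 1 without QC4 and 0 in the other alternatives. Coverage per gigabase was chosen after seeing the data.

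Of all genes, 2 passed the threshold. That count was 1 with no filter, 1 with median centring, 3 with array weights and between 1 and 5 with a library left out. The count of S phase genes lower in PC del adenomas, 6, was 2 with TPM, 11 with median centring, 11 with array weights and between 2 and 15 with a library left out (2 without QC4, 15 without QC6). The count of mitotic genes, 15, was 6 with TPM and between 0 and 23 with a library left out (0 without QC5, 3 without QC4, 23 without QC6). Neither list therefore has a direction that holds over the alternatives, and the cause was not tested. The genotype difference in S phase score minus mitotic score, 0.04, lay between -0.01 (without QC5 or QC10) and 0.13 (without QC6).

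Single genes also crossed 0. With TPM *Pcna* was at 0.02, with median centring *Top2a* was at -0.02, with array weights *Top2a* was at -0.12, and by coverage *Ccnb1* was at -0.01 and *Cdk1* at -0.03. With a library left out the log2 fold change lay between -0.31 and 0.02 for *Birc5*, -0.06 and 0.14 for *Ccnb1*, -0.33 and 0.04 for *Cenpa*, -0.29 and 0.10 for *Mki67*, -0.11 and 0.03 for *Pcna*, -0.15 and 0.16 for *Top2a*, and -0.10 and 0.37 for *Tyms*. *Cdk1* lay between 0.01 (without QC5 or QC6) and 0.34 (without QC4). *Mcm3* stayed above 0, and *Fen1* and *Spc25* below 0, in every alternative run, but their size moved with a library left out: 0.14 (without QC6) to 0.41 (without QC10) for *Mcm3*, -1.70 (without QC8) to -0.78 (without QC10) for *Fen1* and -0.71 (without QC5) to -0.35 (without QC4) for *Spc25*. *E2f1* stayed below 0, between -0.27 (without QC10) and -0.09 (without QC3) with a library left out and at -0.28 with array weights, and did not pass the filter at 5 FPKM.

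Libraries of the 2 genotypes share no number or label, so no paired analysis was possible. Without counts, depth enters only through the scaled values.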
